A study of Homo sapiens with 22 samples.

Results

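Wild-type HT1080 cells treated with PCI-34051, an inhibitor reported to target KDAC8, were compared with untreated wild-type HT1080 cells (WT) across the protein-coding genes. HT1080 is an established human fibrosarcoma line. The comparison rested on 3 libraries of cells that received 5 µM PCI-34051 at 50% confluency and were harvested 48 h later, and on 4 libraries of WT cells, out of 22 libraries in 6 groups. The other groups used here were 3 libraries of wild-type cells given 1 µM Tubastatin A, an inhibitor reported to target KDAC6, for the same 48 h, and 4 libraries of KDAC8H143A, a line grown from a single colony in which the endogenous KDAC8 carries an inactivated catalytic domain. For library makeup only, 4 untreated libraries each of KDAC6H216A and KDAC6H611A were also read. In these lines the first or the second catalytic domain of the endogenous KDAC6 is inactivated, and KDAC6H216A was pooled from 3 independent lines. All groups shared the HT1080 background, growth medium and RNA work-up, and replicates were described as biological. The sources used here name no vehicle for the WT cells. The genes were taken from the whole table without regard to their values. Of 60675 genes, 19586 were protein-coding, and 12522 of these passed the filter on low counts and were tested. The remaining protein-coding genes had too few counts to be tested in either direction.

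Lysine deacetylases (KDACs, also called HDACs) remove acetyl groups from lysine residues of histones and of many other proteins. KDAC8, encoded by HDAC8, is a zinc-dependent enzyme best known for deacetylating SMC3, a subunit of the cohesin ring that holds sister chromatids together. Inhibitors of this enzyme family are widely used to ask which transcripts depend on deacetylase activity, and broad inhibitors typically change the transcription of cell-cycle, differentiation and stress genes.

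The libraries differed in more than the treatment. Library totals ran from 5248960 to 8998521 counts in WT and from 24315844 to 28676574 counts with PCI-34051. In WT, 22% ± 1.35 (SD, n = 4) of a library was mitochondrial rRNA and 62.8% ± 2 was protein-coding. With PCI-34051 these shares were 0.00231% ± 0.00268 and 89.2% ± 0.834 (SD, n = 3). Both shares differed with p = 0.0286 in a two-sided exact permutation test, the smallest value that 35 splits of 3 against 4 allow. In the comparison with WT, library makeup and treatment therefore cannot be told apart. The mitochondrial rRNA share also varied among the other groups. It was low with Tubastatin A (mean 0.00148%), in all 4 untreated KDAC8H143A libraries (0.00376% to 0.0259%) and in 1 untreated library of each KDAC6 mutant (0.195% and 0.173%), and 13.1% to 38% in the other 6 libraries of those mutants. The labelled cell type was borne out by its markers. All 15 mesenchymal markers examined had counts in each of the 7 libraries, with a summed level of 6161 to 6678 counts-per-million (CPM) in WT and 8589 to 8789 CPM with PCI-34051. Epithelial markers summed to 250 to 288.3 and 345.5 to 375.1 CPM, nearly all of it KRT8 and KRT18, and EPCAM, KRT5 and KRT14 were at 0 in all 7 libraries. Immune and endothelial markers summed to 159 to 173 and 179 to 198 CPM, of which CD68 and TIE1 made up most. Their part in the results below was not tested. In bulk RNA, fewer cells of a kind and less RNA per cell cannot be told apart.

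Levels are given as CPM after TMM scaling of the PCI-34051 and WT libraries together, unless stated, and differences as log2 fold changes with their standard error (SE), positive where PCI-34051 was higher. A gene was called higher or lower at an adjusted p below 0.01 in edgeR's quasi-likelihood test (Benjamini-Hochberg over all 15346 genes tested). By that rule 3622 protein-coding genes were higher (28.9% of those tested), 3182 were lower (25.4%) and 5718 did not pass. The 3 PCI-34051 libraries lay wholly above or wholly below the 4 WT libraries for 7909 genes (63.2%). Most genes named below were picked because they were called, so separation of their libraries is no further support. Of the genes called, 882 rose and 507 fell by at least 2-fold, and 196 rose and 91 fell by at least 4-fold. The median over all protein-coding genes was 0.03, which became 0.41 when the libraries were scaled by total count only. With that scaling 7256 genes were called higher and 1033 lower, so directions below are relative to the bulk of protein-coding transcripts, and falls of less than about 0.38 on the log2 scale turn positive with total count only. With non-coding genes left out of the library sizes and the fit, 3518 were higher and 3510 lower. After thinning every library to the depth of the smallest, 2074 were higher and 1750 lower.

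The transcript of the named target was not called different. HDAC8, on chromosome X from 72329516 to 72573101 on the minus strand (GRCh38), lay at 13.5, 13.3, 13.2 and 11.7 CPM in WT and at 13.6, 12.6 and 12.4 CPM with PCI-34051. The groups overlapped, the log2 fold change was -0.00 ± 0.10 (adjusted p = 0.988), and with total count only it was 0.38 and passed the threshold (adjusted p = 0.00266). HDAC6 lay at 10.3 to 16.9 CPM in WT and 16.7 to 17.8 CPM with PCI-34051 (0.23 ± 0.11, adjusted p = 0.0846). Among the 17 deacetylases tested, 4 rose and 3 fell, with a median of -0.00 (0.38 with total count only). HDAC4, a class IIa enzyme, was the member with the greatest change, from 14.2, 16.2, 17.1 and 16.5 CPM to 33.7, 33.5 and 34.0 CPM (1.06 ± 0.07, adjusted p = 1.75e-09), and its groups did not overlap. HDAC1 (0.23), HDAC2 (0.17) and SIRT5 (0.36) rose slightly, but of the 7 fits that left out 1 library these calls held in 4, 2 and 4, and HDAC1 and SIRT5 also lost theirs with thinned libraries (adjusted p = 0.0883 and 0.236). Among the falls, SIRT2, a cytoplasmic tubulin deacetylase (-0.49), HDAC9 (-0.43) and HDAC7 (-0.26) were called, the last of these turning positive with total count only. Of 20 lysine acetyltransferases, 2 rose and 8 fell, with a median of -0.13 that became 0.26 with total count only. NCOA3 rose (0.65), the deepest fall of the list was -1.01, and KAT5 and KAT8 each fell by 0.47.

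SMC3, whose protein is the best known KDAC8 substrate, fell. It lay at 137, 119, 128 and 118 CPM in WT and at 79.1, 76.7 and 78.9 CPM with PCI-34051, without overlap (-0.68 ± 0.06, adjusted p = 1.2e-08). With Tubastatin A, SMC3 was also lower than in the same WT libraries (-0.54, adjusted p = 8.12e-08). Of 17 cohesin subunits and regulators, 8 fell and 1 rose, with a median of -0.22 that became 0.17 with total count only. The core subunits did not move together. SMC1A (-0.16, adjusted p = 0.0174), RAD21 (-0.09, adjusted p = 0.178), STAG2 (0.08) and the loader NIPBL (0.15, adjusted p = 0.0204) did not pass the threshold. The members with the deepest falls act at particular cell-cycle stages. ESPL1, the separase that cleaves cohesin at anaphase, went from 58.9, 65.1, 65.8 and 66.7 CPM to 23.5, 22.5 and 22.8 CPM (-1.49 ± 0.06). CDCA5, which protects cohesin after replication, fell by 1.16 on the log2 scale, and ESCO2, the S-phase acetyltransferase of SMC3, fell by 1.01. ESCO1, the other SMC3 acetyltransferase, was at 23.1 to 35.4 CPM in WT and 22.3 to 26.3 CPM with PCI-34051 (-0.23, adjusted p = 0.0618). PDS5B rose (0.35).

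The genes with the greatest rises were led by CRISPLD2, a secreted glycoprotein gene on chromosome 16 from 84819985 to 84920768. It was at 0.218, 0.124, 0 and 0.293 CPM in WT and at 13.8, 14.2 and 16.9 CPM with PCI-34051. The WT libraries held 4 counts of CRISPLD2 in all against 1368 with PCI-34051, a ratio of 102 with a 95% counting interval of 39.9 to 376.5. MARCKS, an actin-binding substrate of protein kinase C, had 6 counts in WT against 598, a ratio of 29.9 (13.6 to 81.7). For both genes the SE of the fitted difference was above 0.3, since WT was near 0. The intervals cover counting error only.

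Prostaglandin E2 synthesis was represented by 2 of the 12 greatest rises. PTGS2, the inducible cyclooxygenase, rose from 2.18, 1.74, 3.64 and 0.878 CPM to 44.2, 38.6 and 39.7 CPM (4.24 ± 0.17, adjusted p = 1.54e-12). PTGES, the terminal prostaglandin E synthase, rose from 4.15, 5.34, 5.39 and 5.85 CPM to 93.1, 90.1 and 79.9 CPM (4.05 ± 0.10, adjusted p = 1.52e-15). The 12 greatest rises were picked among called genes whose libraries did not overlap, so that separation is no further support. TXNIP, the thioredoxin-interacting alpha-arrestin and a classic deacetylase-inhibitor response gene, was the most abundant of the 12, at 16.8, 15, 18.6 and 14.6 CPM in WT and 242, 286 and 268 CPM with PCI-34051 (4.03 ± 0.08, adjusted p = 4.62e-16). The others were DHRS3, a retinaldehyde reductase (4.83), the transcription factors SOX21 (4.40) and ATOH8 (4.25), the cell-adhesion protein CLSTN2 (4.30), the carbonic anhydrase CA9 (4.27), the receptor auxiliary subunit KCTD16 (3.79) and the procollagen peptidase ADAMTS2 (3.68). All 12 kept their call in each of the 7 fits that left out 1 library. With Tubastatin A all 12 also rose over the same WT libraries, from 3.26 (PTGS2) to 6.28 (CRISPLD2).

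**Figure D1:**
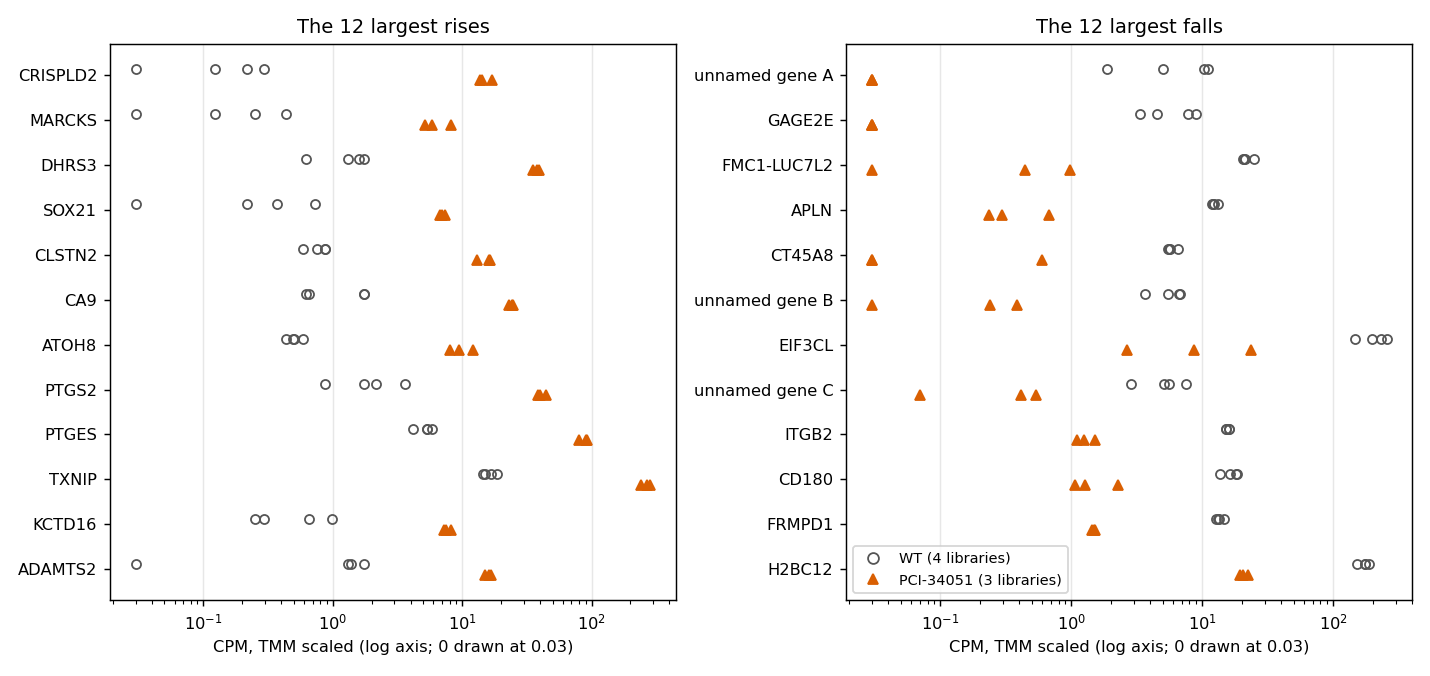
CPM (TMM scaled, log axis, values of 0 drawn at 0.03) of the 12 protein-coding genes with the greatest rise and the 12 with the greatest fall, with open circles for the 4 WT libraries and triangles for the 3 PCI-34051 libraries. Genes were picked only among those whose groups did not overlap. In 2 of the falls (GAGE2E and unnamed gene A, which is ENSG00000267059) all PCI-34051 libraries are at 0.

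Many of the 12 greatest falls cannot be assigned to a single locus with confidence. FMC1-LUC7L2 is a readthrough of neighbouring genes (-5.47), EIF3CL is a near-identical copy of EIF3C (-4.14), GAGE2E and CT45A8 belong to families of near-identical cancer-testis genes, and 3 genes had no symbol. Estimated counts of such genes can shift between copies or overlapping models, so these values are uncertain. GAGE2E and ENSG00000267059 were at 0 in all 3 treated libraries, which at the floor of 3 counts per library makes them at least 62.2-fold and at least 71.2-fold lower. The other 5 were APLN, ITGB2, CD180, FRMPD1 and H2BC12, the last of which has similar histone copies. APLN, encoding the secreted peptide apelin, was at 13.3, 12.1, 11.9 and 12.4 CPM in WT and at 0.671, 0.297 and 0.236 CPM with PCI-34051 (-4.95 ± 0.25, adjusted p = 3.15e-11). ITGB2, the beta chain of leukocyte integrins, went from 15.3, 16, 15.3 and 15.9 CPM to 1.52, 1.25 and 1.11 CPM (-3.59 ± 0.16). CD180, a Toll-like receptor homologue (-3.44), FRMPD1 (-3.18) and the histone gene H2BC12 (-3.06) followed. The 12 greatest falls were picked in the same way, so the separation of their libraries was fixed by the choice.

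Genes of 39 lists covering pathways, complexes and cell types were then read against the background of 28.9% higher, 25.4% lower and a median of 0.03. Few lists moved in 1 direction as a whole. The lists with the highest medians were hypoxia response (1.08), immediate early genes (1.01), NF-kB cytokines (1.00) and NRF2 targets (0.95). With a filter of at least 10 counts in every library the NF-kB median was 0.53, below those of mesenchymal markers (0.72), collagens and matrix (0.66) and matrix proteases (0.64), and that of immediate early genes was 0.89. The lowest medians were those of cholesterol synthesis (-1.08), kinetochore and spindle (-0.71), replication-dependent histones (-0.70) and G2/M cyclins and anaphase (-0.60). No test over a list was made, and the counts are descriptive.

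**Figure D2:**
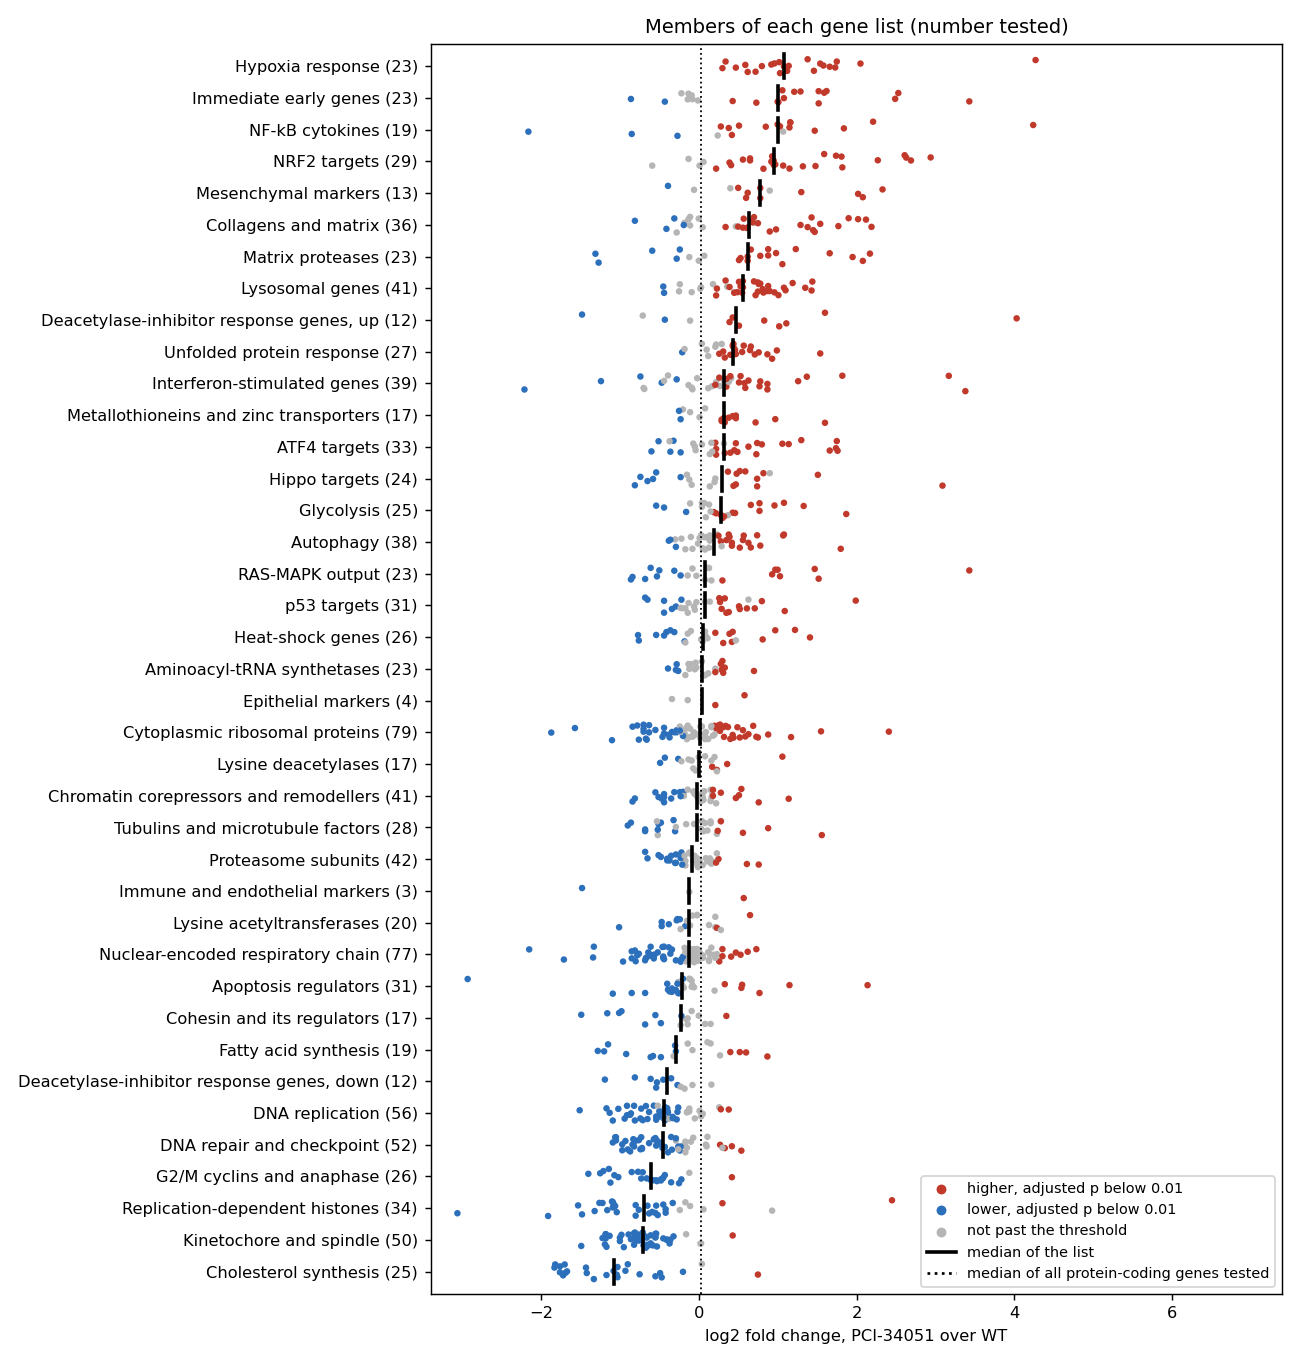
Log2 fold change of PCI-34051 over WT (horizontal axis) for every tested member of 39 gene lists, ordered by their median (black bars), with points red where higher, blue where lower and grey where not past the threshold, the number tested in brackets, and the median of all protein-coding genes dotted. All 23 hypoxia genes tested lie to the right of 0, and 23 of 25 cholesterol genes are coloured as lower.

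Genes of chromosome segregation fell almost throughout. Of 50 kinetochore and spindle genes, 46 fell and 1 rose, with a median of -0.71, corresponding to 1.64-fold lower levels. CENPE, the kinetochore motor, was at 197, 181, 178 and 180.5 CPM in WT and at 69.8, 64.0 and 62.5 CPM with PCI-34051 (-1.49 ± 0.06, adjusted p = 1.02e-12). CENPF, a large kinetochore protein, went from 566, 524, 540 and 527 CPM to 246, 229 and 230.1 CPM (-1.20 ± 0.06). CENPI fell by 1.22, and AURKB, the mitotic kinase of the chromosomal passenger complex, by 1.19. For all 4 the groups did not overlap. CENPH, a further centromere subunit, was the exception that rose (0.43). PLK1, whose product drives mitotic entry, fell by only 0.32, and KIF20A (-0.16), MIS12 (0.02) and BUB3 (0.03) did not pass. Of 26 genes for G2/M cyclins, condensin and anaphase, 24 fell and 1 rose, with a median of -0.60. CKS2, a cyclin-dependent kinase subunit, fell from 59.2, 66.4, 61.8 and 58.8 CPM to 23.0, 25.1 and 21.9 CPM (-1.40 ± 0.07). The proliferation marker MKI67 fell by 1.12 and FOXM1, a transcription factor of the G2/M programme, by 1.02. CCNB1 (-0.54) and CDK1 (-0.58), the mitotic cyclin and its kinase, fell less. WEE1, the kinase that holds CDK1 inactive, rose from 57.9, 49.7, 49.4 and 48.9 CPM to 69.1, 68.9 and 66.7 CPM (0.42 ± 0.06). Both list medians kept their sign with total count only (-0.33 and -0.21), and with thinned libraries 42 and 19 members were lower.

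Genes of replication and repair fell less deeply. Of 56 replication genes, 42 fell and 2 rose (median -0.44, -0.05 with total count only). E2F2, an activating E2F factor, fell from 7.86, 5.72, 7.15 and 7.75 CPM to 2.58, 2.62 and 2.23 CPM (-1.51 ± 0.18), ORC1 of the origin recognition complex by 1.17 and the flap nuclease FEN1 by 1.13. Several core genes were not called, among them PCNA (-0.12, adjusted p = 0.164), MCM6 (0.01) and TK1 (0.04). ORC4 (0.28) and RPA1 (0.38) rose. Of 52 repair and checkpoint genes, 34 fell and 4 rose (median -0.45). CLSPN, the claspin adaptor of CHEK1, fell by 1.09, and FANCB and EXO1 by 1.06 and 1.05. The exceptions were FANCF (0.54), FANCC (0.42), TP53BP1 (0.33) and H2AX (0.27), and FANCC had a value of -0.04 with thinned libraries, while H2AX kept its call in 4 of the 7 fits that left out 1 library. ATM (0.10) and ATR (-0.07), the apical checkpoint kinases, did not pass.

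Promoters of these genes were searched because genes of mitosis and of replication are classically driven by different elements. RefSeq sequences of GRCh38.p14 from 250 bases before to 50 bases after the start were available for 41 of the 50 kinetochore and spindle genes, 22 of the 26 G2/M genes and 47 of the 56 replication genes. On either strand, the cell cycle homology region TTTGAA was found in 29 of 41 (70.7%) and 15 of 22 (68.2%) of the first pair of lists, against 15.9% of 15226 protein-coding genes with a promoter. CCAAT was in 73.2% and 77.3% of the same promoters, against 42.6%. The E2F letters TTTGGCGC were in 10 of 47 replication promoters (21.3%, against 1.1%), and TTTCCCGC in 12 of 47 (25.5%, against 2.67%). A match of one element was never a match of its partner, and a match is a description of letters, not a site shown to be bound. The promoters of CENPF (chr1:214602945-214603244, plus strand) and E2F2 (chr1:23531184-23531483, minus strand) are printed 5′ to 3′ because they were among the genes with the deepest falls and held the letters, in capitals. CENPF held CCAAT or its complement 4 times and TTTGAA once, and E2F2 held TTTGGCGC once.
CENPF: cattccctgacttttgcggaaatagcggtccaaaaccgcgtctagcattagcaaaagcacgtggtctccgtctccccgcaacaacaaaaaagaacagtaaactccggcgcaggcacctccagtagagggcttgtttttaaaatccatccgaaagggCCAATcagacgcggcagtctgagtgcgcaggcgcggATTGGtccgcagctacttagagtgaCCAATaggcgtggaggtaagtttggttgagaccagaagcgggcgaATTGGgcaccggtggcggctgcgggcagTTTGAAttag
E2F2: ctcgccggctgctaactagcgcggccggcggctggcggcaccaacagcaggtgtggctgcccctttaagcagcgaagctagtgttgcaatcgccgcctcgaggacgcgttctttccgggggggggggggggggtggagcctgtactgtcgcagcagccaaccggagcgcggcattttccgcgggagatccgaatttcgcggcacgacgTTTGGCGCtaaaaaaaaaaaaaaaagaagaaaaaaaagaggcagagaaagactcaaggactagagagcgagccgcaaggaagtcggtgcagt
The promoters of CENPE, CENPI, ORC1 and FEN1 held none of the letters searched in their lists within this window.

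Replication-dependent histone genes encode the histones made in S phase, and 27 of the 34 tested were lower, 2 were higher and the median was -0.70. The other 21 of the 55 in the table had at most 21 counts in any of the 7 libraries. H2BC12 was at 152, 188, 176 and 175 CPM in WT and at 19.4, 22.4 and 20.6 CPM with PCI-34051 (-3.06 ± 0.07, adjusted p = 1.61e-15). H1-4, a linker histone, went from 427, 463, 462 and 474 CPM to 166, 160.1 and 149 CPM (-1.53 ± 0.06), and H2BC14 fell by 1.91. None of the 3 had overlapping groups. H4C15, which shares its coding sequence with other H4 genes and is therefore uncertain, rose (2.45 ± 0.47). The histone result depended on a correction for GC content and gene length, after which 16 members were lower and 5 higher and the median was -0.17. These genes are short, their transcripts are mostly not polyadenylated, and CCAAT was in 25 of 31 of their promoters (80.6%).

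Genes of the cholesterol pathway fell from its first steps to its last. Of 25 tested, 23 fell, and the median of -1.08 corresponds to 2.11-fold lower levels (-0.69 with total count only, -1.16 after GC and length correction). HMGCS1, which makes HMG-CoA, lay at 99.3, 109, 101 and 97.0 CPM in WT and at 28.2, 30.7 and 27.5 CPM with PCI-34051 (-1.82 ± 0.06, adjusted p = 1.22e-13). LSS, the lanosterol synthase, fell from 95, 104, 100.2 and 105 CPM to 29.4, 28.5 and 27.7 CPM (-1.83 ± 0.06). In both, all treated libraries were well under all WT libraries. IDI1 (-1.76) and HSD17B7 (-1.76) fell nearly as deeply. The late enzymes EBP (-0.47), SC5D (-0.49) and DHCR7 (-0.55) fell least among the enzymes. INSIG1, the retention factor of the sterol sensor, fell by 1.17. SREBF2, encoding the transcription factor of the pathway, fell by only 0.20 (adjusted p = 0.00542, called in 2 of 7 fits without 1 library), and its escort SCAP was at 0.04. PMVK was the exception, rising from 5.02, 4.60, 2.38 and 4.39 CPM to 7.52, 6.99 and 5.63 CPM (0.75 ± 0.20, adjusted p = 0.00422, called in 5 of 7 fits without 1 library). The letters TCACNCCAC of a sterol regulatory element were in 1 of 19 promoters (5.26%, against 1.54% of protein-coding genes).

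Fatty acid synthesis was mixed. Of 19 genes, 9 fell and 4 rose, and the median of -0.29 became 0.10 with total count only. The stearoyl-CoA desaturase SCD fell from 553, 600.2, 614 and 591 CPM to 230.0, 240.1 and 256 CPM (-1.28 ± 0.06), the phosphatidate phosphatase LPIN1 by 1.20 and the desaturase FADS2 by 1.15. FASN, the fatty acid synthase, fell by 0.92. ACSL1 (0.87), ELOVL6 (0.60) and ACSS2 (0.52), which activate or elongate acyl chains or make acetyl-CoA, rose.

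All 23 hypoxia-response genes that could be tested rose, with a median of 1.08, corresponding to 2.11-fold higher levels, and a range from SLC2A1 (0.30) to CA9 (4.27). ADM, ANGPTL4 and EGLN3, with at most 54 counts in any of the 7 libraries, did not pass the filter. CA9, the tumour carbonic anhydrase used as a hypoxia marker, was at 0.655, 0.621, 1.76 and 1.76 CPM in WT and at 23.2, 24.2 and 24.9 CPM with PCI-34051 (4.27 ± 0.18, adjusted p = 3.07e-12). CA12, its membrane-bound relative, rose from 9.17, 8.20, 9.03 and 9.95 CPM to 35.8, 38.9 and 38 CPM (2.05 ± 0.09). VEGFA, the angiogenic growth factor, rose from 191, 174, 160 and 175 CPM to 521, 526 and 608 CPM (1.66 ± 0.07). None of the 3 overlapped between groups. The prolyl hydroxylase P4HA1, which acts on collagen, rose by 1.73 and the stress gene NDRG1 by 1.58. The hypoxia-inducible factors were themselves higher, HIF1A by 0.92 (adjusted p = 3.48e-10) and EPAS1 by 1.46. Oxygen was not a variable of the design. The list kept 21 calls with thinned libraries and 23 after GC and length correction.

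The hypoxia response element ACGTG or its complement was in 11 of 20 promoters of these genes (55%), against 28.7% of protein-coding genes. The promoter of CA9 (chr9:35673678-35673977, plus strand, RefSeq, GRCh38.p14) is shown 5′ to 3′ because CA9 changed most, with the match in capitals on the complementary strand, 18 bases before the start.
CA9: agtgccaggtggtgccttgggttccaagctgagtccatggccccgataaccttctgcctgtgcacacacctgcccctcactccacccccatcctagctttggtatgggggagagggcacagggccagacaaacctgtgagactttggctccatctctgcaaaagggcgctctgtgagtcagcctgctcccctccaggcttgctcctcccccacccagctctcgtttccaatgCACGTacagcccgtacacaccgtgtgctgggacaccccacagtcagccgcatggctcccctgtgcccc
In CA12 and STC2 the letters were not found in this window.

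Glycolysis rose less than the hypoxia list with which it shares members. Of 25 genes, 14 rose and 3 fell (median 0.28). ALDOC (1.87), ENO2 (1.33) and PDK1, which keeps pyruvate out of the mitochondrion (1.08), rose most, and LDHA rose by 0.77. ALDOC lay at 11.1, 15.3, 13.8 and 12.1 CPM in WT and at 49.6, 50 and 46.2 CPM with PCI-34051. HK2 (-0.54), LDHB (-0.44) and GAPDH (-0.16, adjusted p = 0.00978) fell, and GAPDH lost its call in 6 of the 7 fits that left out 1 library.

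**Figure D3:**
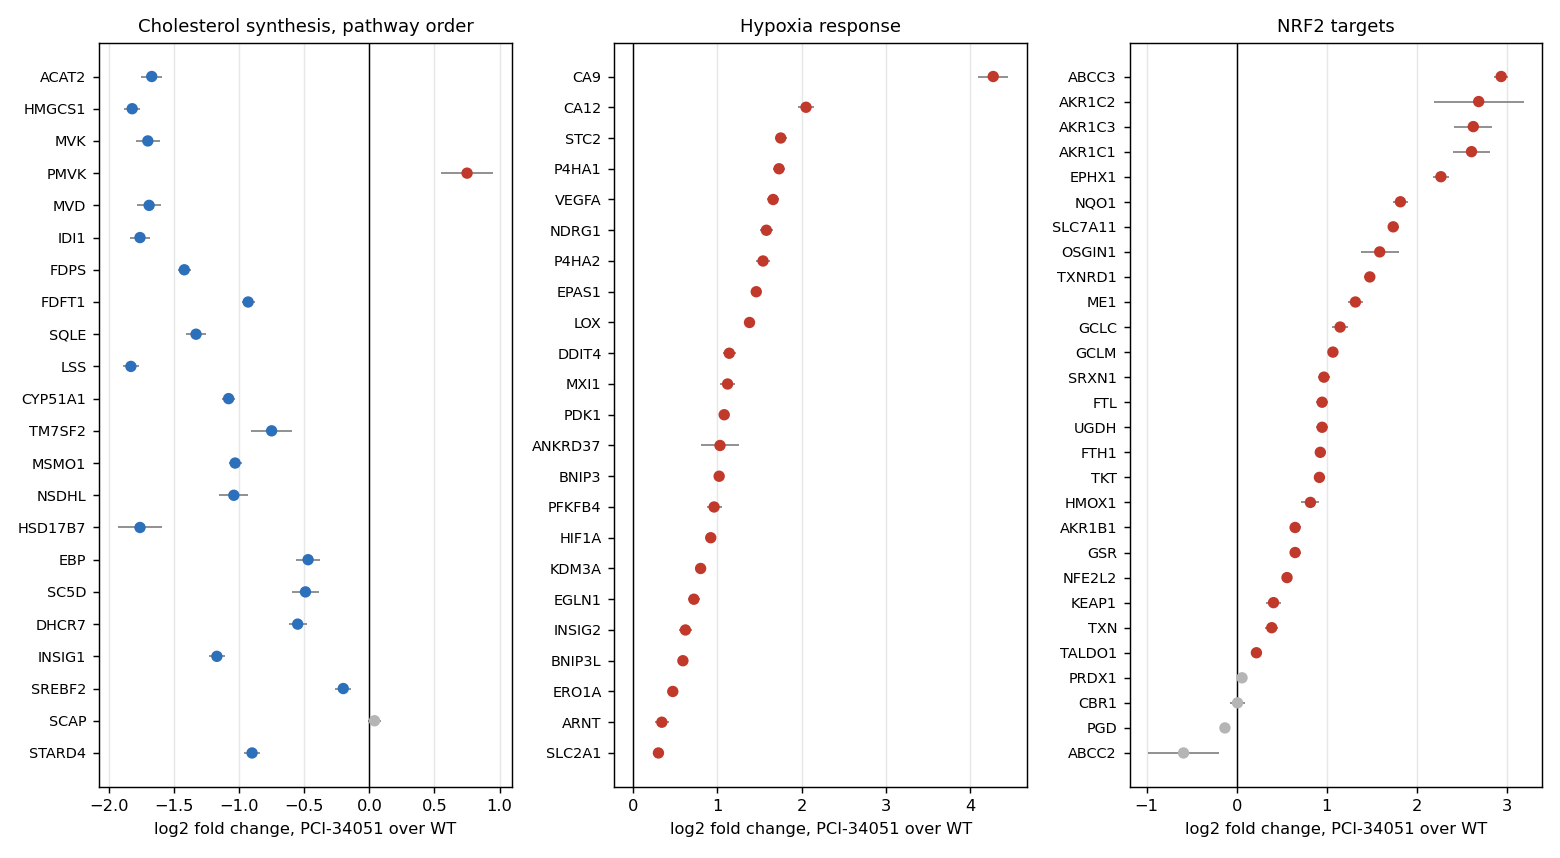
Log2 fold change of PCI-34051 over WT with its SE for tested members of 3 lists, a few not shown, cholesterol genes in pathway order and the others by size, coloured as in the plot of all lists. Cholesterol genes lie between -1.83 and 0.75, hypoxia genes between 0.30 and 4.27, and NRF2 targets between -0.59 and 2.94.

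NRF2 is the transcription factor of the antioxidant response, and 25 of 29 of its targets tested rose while none fell (median 0.95, 1.94-fold). ABCC3, a conjugate export pump, lay at 9.39, 9.94, 9.78 and 12 CPM in WT and at 75.4, 77.6 and 84.8 CPM with PCI-34051 (2.94 ± 0.08, adjusted p = 1.03e-14). NQO1, the quinone reductase, rose from 43.7, 48, 55.9 and 49.9 CPM to 187, 183 and 157 CPM (1.82 ± 0.08). Both separated the groups fully, as did 63.2% of all protein-coding genes tested. EPHX1 (2.27), the cystine importer SLC7A11 (1.74), TXNRD1 (1.48) and the glutamate-cysteine ligase subunits GCLC (1.15) and GCLM (1.07) also rose. AKR1C1, AKR1C2 and AKR1C3 (2.61 to 2.69) are near-identical in sequence and their separate values are uncertain. HMOX1, often taken as a marker of this response, rose by only 0.82, and NFE2L2, the gene of NRF2, by 0.56. PRDX1 (0.06), CBR1 (0.01), PGD (-0.13) and ABCC2 (-0.59, adjusted p = 0.196) were not called. The letters TGACNNNGC were in 7 of 22 promoters (31.8%, against 18%).

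The endoplasmic reticulum was also represented among the rises. Of 27 unfolded protein response genes, 19 rose and 1 fell (median 0.44). HSPA5, the luminal chaperone BiP, rose from 236, 235, 217 and 237 CPM to 661, 684 and 668 CPM (1.54 ± 0.05, adjusted p = 2.94e-13). SEL1L, of the degradation machinery, rose by 0.99 and the lectin chaperone CALR by 0.93, and DNAJB11 was the member that fell (-0.21, called in 4 of 7 fits without 1 library). Of 33 ATF4 targets, 19 rose and 5 fell (median 0.32), with CEBPB (1.76), STC2 (1.75) and SLC7A11 (1.74) highest. The ATF4 transcript itself fell from 376, 409, 409 and 399 CPM to 245, 279 and 263 CPM (-0.60 ± 0.06), and DDIT3, encoding CHOP, rose by 0.40 (called in 4 of 7 such fits). TGATGNAAT, the C/EBP-ATF4 element, was in none of 25 promoters (0.874% of protein-coding genes). Heat-shock genes went both ways, with 9 higher and 8 lower of 26 (median 0.06). The constitutive HSPA8 fell from 2252, 2340, 2542 and 2307 CPM to 1392, 1424 and 1344 CPM (-0.77 ± 0.05), whereas DNAJB4 (1.41), SERPINH1, the collagen chaperone (0.97), and BAG2 (0.81) rose.

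Lysosomal genes were higher in 31 of 41 cases and lower in 2 (median 0.56). NPC2, which moves cholesterol out of the lysosome, rose from 27.5, 24.6, 22.3 and 26.2 CPM to 68.4, 68.6 and 65.2 CPM (1.44 ± 0.07), the acid glucosidase GAA by 1.43 and the membrane protein LAMP2 by 1.19. NEU1 (-0.44) and ATP6V0D1 (-0.45) were the 2 that fell. Of 38 autophagy genes, 17 rose and 3 fell (median 0.19), and those that rose most encode the ubiquitin-like conjugates GABARAPL1 (1.80) and MAP1LC3B (1.08) and the cargo receptor SQSTM1 (1.07). SQSTM1 lay at 412, 488, 475 and 481 CPM in WT and at 982, 1018 and 931 CPM with PCI-34051. Proteasome subunits went little either way, with 4 higher and 14 lower of 42 (median -0.08, 0.30 with total count only), as did aminoacyl-tRNA synthetases, with 7 higher and 4 lower of 23 (median 0.04, -0.01 after GC and length correction). Among 17 metallothionein and zinc-transporter genes, 11 rose and 2 fell (median 0.32). MT1X, a zinc-binding metallothionein, rose by 1.60 and the zinc exporter SLC30A1 by 0.97. The metal response letters TGCGCNC were in 6 of 15 promoters (40%, against 31.2%).

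Inflammatory and early-response genes were more often higher than lower, several of them from low levels. Of 19 NF-kB cytokine genes tested out of 28, 14 rose and 3 fell (median 1.00). Besides PTGS2, CSF1, the macrophage growth factor, rose from 48.7, 49.6, 48.8 and 56.9 CPM to 231, 225 and 253 CPM (2.21 ± 0.07), and the adhesion molecule ICAM1, at 1.12 to 2.4 CPM in WT and 4.72 to 6.13 CPM with PCI-34051, rose by 1.84. CCL5, a chemokine, fell from 8.51, 7.08, 7.27 and 7.02 CPM to 1.38, 1.64 and 1.96 CPM (-2.16 ± 0.20), and TNFAIP3, a brake on the pathway, fell by 0.85. With thinned libraries 7 of these genes were higher and 3 lower. Of 23 immediate early genes, 15 rose and 2 fell (median 1.01), EGR1 going from 1.75, 1.62, 1.63 and 1.61 CPM to 17.4, 12.8 and 23.3 CPM (3.43 ± 0.25). FOSL1 (-0.86) and KLF6 (-0.43) fell, while JUN (-0.13) and MYC (-0.08) were not called. The cAMP response element TGACGTCA was in 3 of 18 promoters (16.7%, against 3.06%). Of 39 interferon-stimulated genes, 19 rose and 5 fell (median 0.32), with GBP2 (1.82), SAMD9L (1.37) and IFITM1 (1.26) higher and ISG20 (-2.21) and IRF7 (-1.24) lower.

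Signalling and survival genes did not share a direction. Of 23 RAS-MAPK output genes, 8 rose and 8 fell (median 0.08, -0.06 after GC and length correction), EGR1 and FOS (1.52) among the rises and DUSP5 (-0.84) and SPRY4 (-0.68), both feedback inhibitors, among the falls. Of 31 p53 targets, 13 rose and 7 fell (median 0.08, -0.05 after GC and length correction). The stress cytokine GDF15 rose from 126, 162, 145 and 174 CPM to 584, 614 and 613 CPM (1.99 ± 0.08), the cell-cycle inhibitor CDKN1A by 0.51 and RRM2B by 1.09, while MDM2 was at 0.08 (adjusted p = 0.184) and BAX fell by 0.34. Of 31 apoptosis regulators, 14 fell and 6 rose (median -0.21, 0.18 with total count only). Anti-apoptotic genes of the BCL2 family were lower. BCL2A1 went from 10.7, 10.6, 12.4 and 12.6 CPM to 1.34, 1.31 and 1.92 CPM (-2.93 ± 0.19), BCL2 fell by 1.09, BCL2L1 by 0.85 and MCL1 by 0.40. Of the pro-apoptotic members, BMF rose (2.14), BOK (-0.68), BAD (-0.39) and BID (-0.37) fell, and BBC3 (-0.06) and BCL2L11 (-0.08) were not called.

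Extracellular matrix genes were largely higher. Of 36 collagen and matrix genes, 23 rose and 4 fell (median 0.64). FN1, fibronectin, rose from 679, 719, 791 and 723 CPM to 2868, 2881 and 3116 CPM (2.02 ± 0.06, adjusted p = 1.55e-14), and VCAN, versican, from 42.8, 38.6, 39.1 and 43.6 CPM to 188, 188 and 182 CPM (2.19 ± 0.06). Of 23 matrix proteases and their inhibitors, 15 rose and 5 fell (median 0.62). MMP2, a gelatinase, rose by 2.08 and PLAT, a plasminogen activator, by 1.95. FBN2 (-0.81), MMP3 (-1.27) and MMP1 (-0.28) fell, the last with the opposite sign under total count only. Among 13 mesenchymal markers tested, 9 rose and 1 fell (median 0.78), the one being vimentin, VIM, from 3720 to 4050 CPM in WT and 2906 to 3159 CPM with PCI-34051 (-0.39 ± 0.05). PDGFRB rose by 2.33. Of 24 Hippo targets, 11 rose and 6 fell (median 0.29), TGFB2 rising from 12.7, 15.9, 11.3 and 12.1 CPM to 108, 113 and 112 CPM (3.09 ± 0.08) and the receptor kinase AXL falling from 1215 to 1365 CPM to 712 to 780 CPM (-0.81 ± 0.06). The 4 epithelial markers tested had 2 rises, KRT8 (0.58) and KRT18 (0.21, called in 3 of 7 fits without 1 library), and the 3 immune and endothelial markers 1 rise, CD68 (0.57), and 1 fall, LYZ (-1.48).

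Genes that respond to broad deacetylase inhibitors were among those listed. Of 12 known to rise with such inhibitors, 8 rose and 2 fell (median 0.47), TXNIP, MT1X and the apolipoprotein CLU (1.11) most, while H2BC21 fell from 164, 187, 198 and 184 CPM to 64.2, 63.5 and 69.1 CPM (-1.48 ± 0.06). Of 12 known to fall, 8 fell and none rose (median -0.40, -0.01 with total count only), led by AURKB, BIRC5 (-0.81) and AURKA (-0.61). AURKB was already named among the kinetochore and spindle genes, so these falls are not separate from those of mitotic genes. Corepressor and remodeller genes, whose complexes hold deacetylases, had 8 rises and 14 falls of 41 (median -0.02, 0.37 with total count only), from PHF21A (1.14) to SMARCD1 (-0.84). Tubulin and microtubule genes had 5 rises and 9 falls of 28 (median -0.02, 0.37 with total count only), from the end-binding gene MAPRE3 (1.56) to TUBB6 (-0.90).

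Genes of respiration and of the ribosome behaved unevenly. Of 77 nuclear genes of the respiratory chain, 34 fell and 8 rose (median -0.13, 0.26 with total count only). ATP5ME, a small subunit of ATP synthase, went from 29.0, 29.2, 27.5 and 29.4 CPM to 5.97, 5.83 and 7.59 CPM (-2.15 ± 0.10), NDUFS6 fell by 1.71 and NDUFS5 by 1.34, while SDHC (0.73) and UQCRC2 (0.62) rose. After correction for GC content and length 19 were lower and 18 higher. Of 79 cytoplasmic ribosomal protein genes, 25 rose and 25 fell (median 0.01, 0.27 after correction), from RPS16 (2.41) to RPS27 (-1.87), and since many have processed pseudogenes their single values are uncertain. Over all protein-coding genes, the median log2 fold change was -0.10 for the shortest of 5 equal bins by length and 0.11 for the longest, and 0.12 for the lowest of 5 bins by GC content and -0.03 for the highest. After correction the medians of all bins by either property lay between -0.04 and 0.03.

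**Figure D4:**
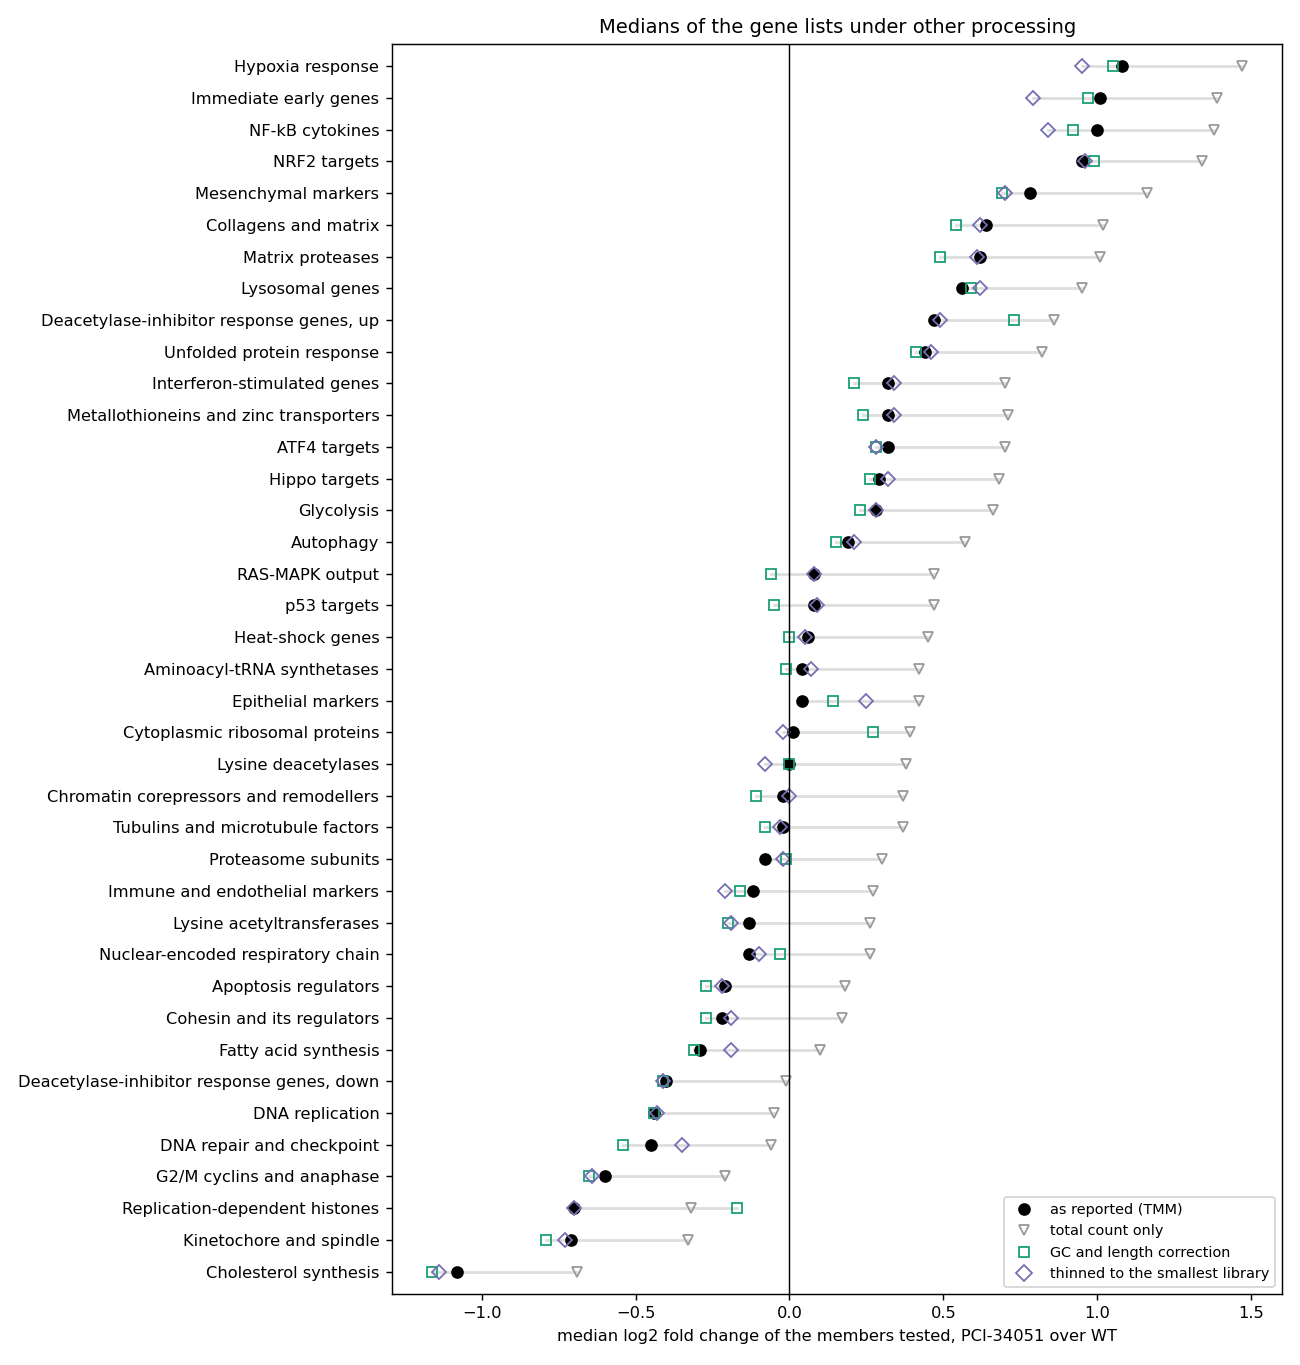
Median log2 fold change of PCI-34051 over WT for each gene list, as reported (filled circles), with scaling by total count only (triangles), after correction for GC content and length (squares) and after thinning to the smallest library (diamonds). Scaling by total count only moves every median to the right, by about the same amount as the median of all protein-coding genes (0.03 to 0.41), and the histone median moves from -0.70 to -0.17 with the GC and length correction.

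PCI-34051 was next compared directly with Tubastatin A, the group closest to it in treatment, time and library makeup, in a fit without WT libraries. The doses differed (5 and 1 µM), so no comparison at matched dose was possible and the values stand side by side. Of 13728 protein-coding genes tested, 327 were higher (2.38%) and 620 lower (4.52%) with PCI-34051, and 2 of the first and 22 of the second differed by at least 2-fold. The split depended on scaling, with 490 higher and 417 lower by total count only and 603 and 722 with non-coding genes left out. The counts also rested on single libraries. Without PCI-34051 replicate 1 they were 179 and 391, and without Tubastatin A replicates 1, 2 and 3 they were 114 and 275, 142 and 313, and 122 and 254. CPM in this and the next paragraph are scaled over the PCI-34051 and Tubastatin A libraries.

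Among genes that reached 5 CPM, PTGS2 was the one furthest above Tubastatin A, at 51.0, 44.5 and 45.5 CPM against 22.5, 23.1 and 25.8 CPM (0.98 ± 0.07, adjusted p = 3.71e-07). EID3, a subunit of the SMC5-SMC6 complex, was at 22.1, 16.5 and 21.9 CPM against 10.3, 11.4 and 11.9 CPM (0.85 ± 0.11). Neither overlapped. SERPINB2 (0.81) and GTF2IRD2B (0.81), both of which lost their call without Tubastatin A replicate 1 (0.72 for each), VASN (0.76) and ARHGAP27 (0.71) followed, and GTF2IRD2B has near-identical copies. KIF5C, a kinesin heavy chain, was the furthest below among such genes, at 15.9, 14.6 and 14.6 CPM against 41.1, 45.4 and 45.1 CPM (-1.55 ± 0.07, adjusted p = 1.51e-09). Against WT, KIF5C was not called with PCI-34051 (0.13, adjusted p = 0.322) and was higher with Tubastatin A (1.68). FGF1 (-1.35), KRTAP2-3 (-1.29), FRAS1 (-1.03), SLC4A8 (-0.99) and the G-protein regulator RGS4 were also lower than with Tubastatin A. RGS4 lay at 56.6, 55.4 and 48.9 CPM against 106, 102 and 115 CPM.

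Against the same background of 2.38% and 4.52%, NRF2 targets were the list with most members above Tubastatin A, 12 higher and 1 lower of 30 (median 0.18). ABCC3 was higher by 0.60 (adjusted p = 2.99e-06), EPHX1 by 0.55, SQSTM1 of the autophagy list by 0.55, FTH1 by 0.41 and TXNRD1 by 0.34. Mitotic and histone genes were the lists with most members below it, with 18 of 50 kinetochore and spindle genes lower and none higher (median -0.20), 10 of 26 G2/M genes lower (-0.21) and 20 of 36 histone genes lower (-0.29). CENPE was lower by 0.32 (adjusted p = 0.000439), CENPF by 0.31 and MKI67 by 0.30. CENPH, higher than in WT, was lower than with Tubastatin A (-0.43, adjusted p = 0.00168). Cholesterol genes had no member higher and 3 lower of 25 (median 0.07), and hypoxia genes 4 higher and 3 lower of 25 (median 0.05). HDAC8 (0.08, adjusted p = 0.596), HDAC6 (-0.03, adjusted p = 0.816) and SMC3 (-0.14, adjusted p = 0.0572) were not called. For 9 of 29 tubulin and microtubule genes and 9 of 24 Hippo targets PCI-34051 was lower, AXL by 0.36 and CCN1 by 0.39. Medians over WT were -1.08 with PCI-34051 and -1.15 with Tubastatin A for cholesterol genes, 1.08 and 1.00 for hypoxia genes, 0.95 and 0.81 for NRF2 targets, and -0.71 and -0.49 for kinetochore and spindle genes. Those comparisons share their 4 WT libraries.

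**Figure D5:**
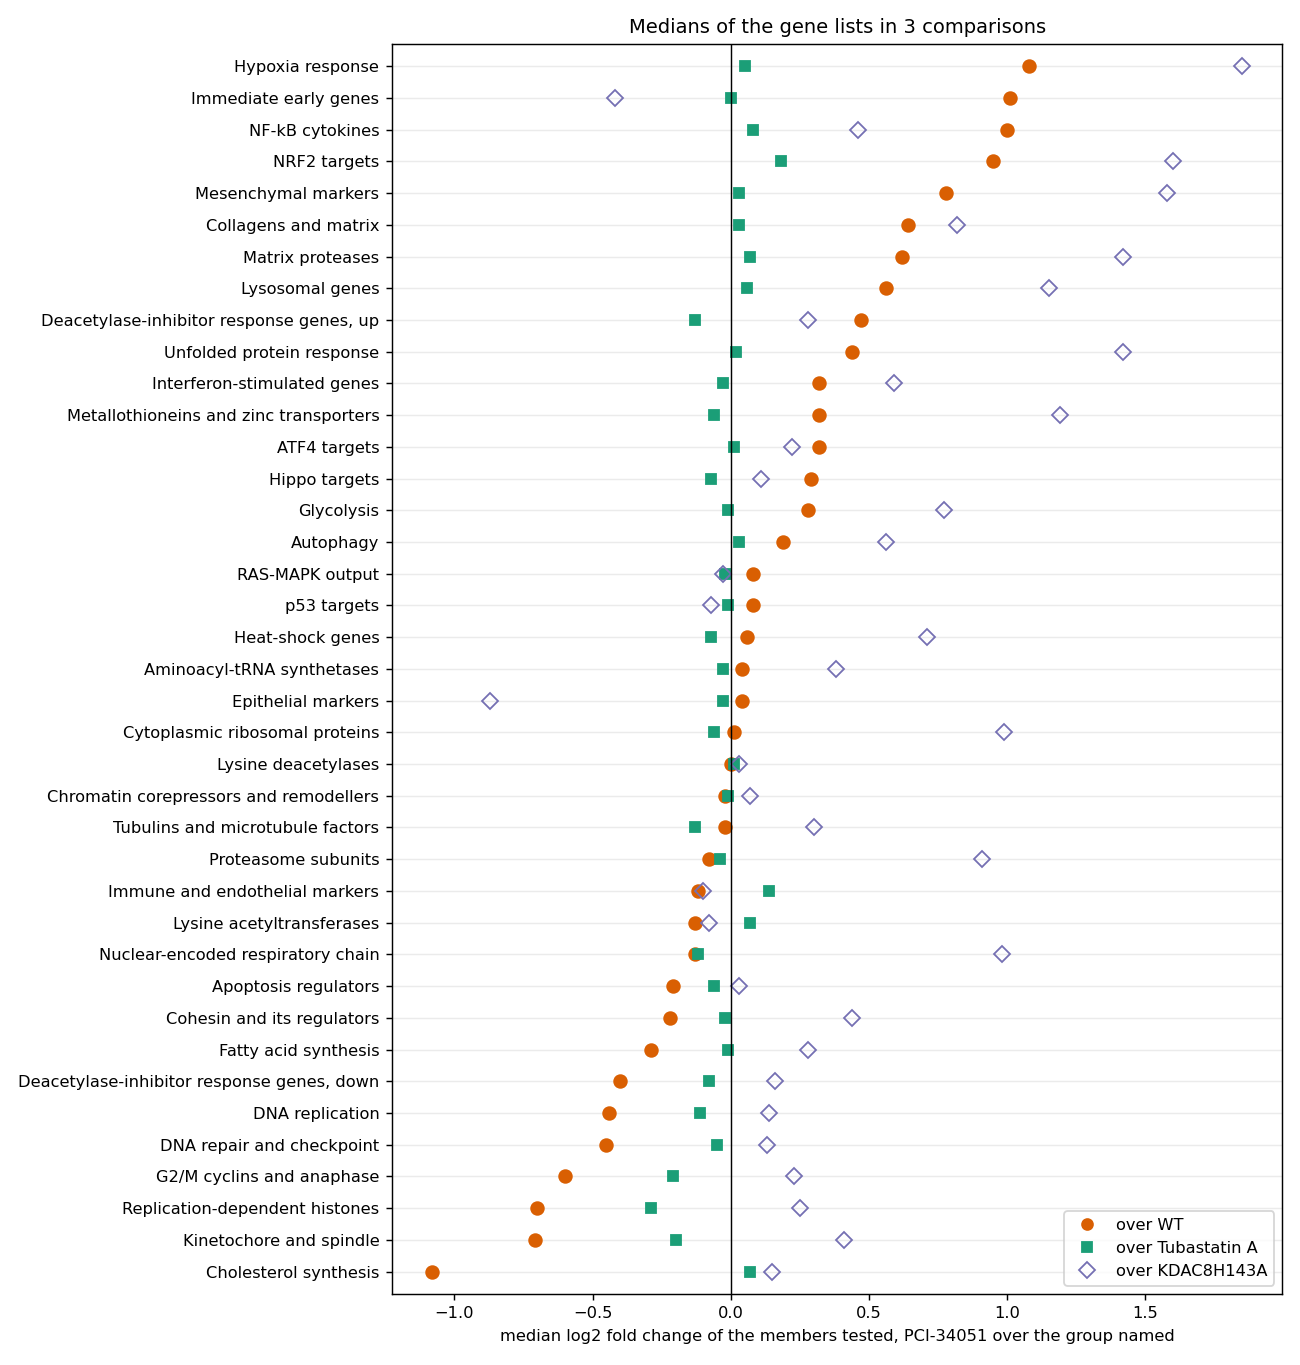
Median log2 fold change of each gene list for PCI-34051 over WT (circles), over Tubastatin A (squares) and over KDAC8H143A (open diamonds), each from its own fit of 2 groups. The medians over Tubastatin A lie between -0.29 and 0.18, while those over KDAC8H143A reach 1.85 for hypoxia genes.

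The last comparison set PCI-34051 against KDAC8H143A, the line whose KDAC8 is inactive, again without WT libraries. Of 13659 protein-coding genes tested, 5238 were higher (38.3%) and 3243 lower (23.7%) with PCI-34051, 3314 and 2027 of them by at least 2-fold, and the median was 0.24. With non-coding genes left out, 4315 were higher and 4177 lower, and with upper-quartile scaling 4262 and 4045. Library totals were 11010779 to 17170493 counts in KDAC8H143A, and the mutant cells are untreated and descend from 1 colony, so treatment, genotype and colony cannot be told apart here. CPM below are scaled over these 7 libraries. HDAC8 itself did not pass, at 16.4, 15.3 and 14.8 CPM with PCI-34051 and 13.2, 16.5, 13.3 and 12.7 CPM in KDAC8H143A (0.15 ± 0.14, adjusted p = 0.345).

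Of the stress-response lists, hypoxia, NRF2, unfolded protein response and heat-shock genes (0.71 against 0.06) had higher medians over the mutant than over WT. So did metallothionein and zinc-transporter genes (1.19 against 0.32). The medians of ATF4 targets (0.22 against 0.32), p53 targets (-0.07 against 0.08) and NF-kB cytokines (0.46 against 1.00) were lower. Hypoxia genes had 23 higher and none lower of 24 (median 1.85), NRF2 targets 29 higher and 1 lower of 30 (1.60) and unfolded protein response genes 23 higher and 1 lower of 28 (1.42). HSPA5 was at 797, 831 and 792 CPM with PCI-34051 and at 211, 224, 271 and 220.5 CPM in KDAC8H143A (1.80 ± 0.12, adjusted p = 1.6e-06), and CA9 at 28, 29.4 and 29.5 CPM against 0.365, 0.326, 1.25 and 0.364 CPM (5.65 ± 0.31). Respiratory chain (0.98), ribosomal protein (0.99) and proteasome genes (0.91), whose medians over WT were near 0, were also higher. Beside the median of 0.24 for all protein-coding genes, kinetochore and spindle genes had 23 higher and 5 lower of 50 (median 0.41) and cholesterol genes 7 higher and 10 lower of 25 (median 0.15). SMC3 lay at 95.4, 93.1 and 93.6 CPM with PCI-34051 and at 66.3, 67.5, 69.9 and 66.2 CPM in KDAC8H143A (0.48 ± 0.10, adjusted p = 0.0011). LSS was lower with PCI-34051, at 35.5, 34.6 and 32.9 CPM against 118, 107, 141 and 132 CPM (-1.86 ± 0.13), whereas HMGCS1 was not called different (-0.32, adjusted p = 0.0885). Immediate early genes had 6 higher and 9 lower of 23 (median -0.42). Over WT, the KDAC8H143A medians were -0.46 for hypoxia genes, -0.51 for NRF2 targets, -0.92 for kinetochore and spindle genes and -0.71 for cholesterol genes. They were -1.02 for unfolded protein response, -0.94 for respiratory chain, -0.92 for ribosomal protein and -0.79 for proteasome genes. Heat-shock genes were at -0.50 and metallothionein and zinc-transporter genes at -0.83. That comparison uses the same 4 WT libraries.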

How the data were processed

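RNA of HT1080 cells was rRNA-depleted and sequenced as paired-end reads by the authors. Per the submitters' processing notes, Trimmomatic 0.39, Bowtie2 2.4.5, RSEM 1.3.3 and DESeq2 1.38.2 were used with GRCh38, and the annotation release is not given in the sources used here. The deposited table holds the expected counts that the authors obtained with RSEM for each of 60675 genes in 22 libraries, without normalization. RSEM divides reads among overlapping or similar genes, so counts of near-identical genes are uncertain.

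Expected counts were rounded, and genes were named and typed by identifier from GENCODE release 44 (56558 matched). Pairs of groups were fitted separately with edgeR 4.0.16 (R 4.3.3): filterByExpr, TMM scaling, quasi-likelihood test, Benjamini-Hochberg adjustment over genes of all types, and a threshold of 0.01. SEs are the fold change over the root of F. The scripts were tested on simulated data with known changes. Without a GC bias, 0.99% of calls against WT were false. With a simulated GC bias, of a size not matched to these libraries, 95.4% were false uncorrected and 0.99% after correction. Calls reported here are uncorrected unless stated. On the TMM scale, 3 counts were worth 0.373 to 0.655 CPM in WT and 0.0892 to 0.106 CPM with PCI-34051. The shares of libraries were compared by exact permutation (scipy 1.17.1). Promoters were RefSeq windows of GRCh38.p14. Alternatives were DESeq2 1.42.0, other scalings and filters, protein-coding genes only, a smooth GC and length offset (mgcv 1.9.3), thinning, the replicate number as a block, a minimum change and leaving out each library.

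The groups, genes and lists were chosen with earlier results of these data known. Genes named by rule were HDAC8, HDAC6 and SMC3, the 12 largest rises and falls against WT that were called, did not overlap and reached 5 CPM, up to 3 rises and 3 falls per list by the same level, and the 6 highest and 6 lowest against Tubastatin A. Other members of the lists were named after their values were seen. No set test was made. The values of some genes are not reported here.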

Additional observations from a re-analysis of the deposited data

Results flagged for a closer look

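In 14 of 198 sets of 4 WT values examined, 1 library lay apart from the other 3 by Dixon's criterion, which chance meets in about 1 in 20. WT replicate 1, the smallest library, was the one apart in 9 of them. It was high for FMC1-LUC7L2 (24.7 CPM, others 20.5 to 21.2), CENPE (197.3, others 178.5 to 181.1), WEE1 (57.9, others 48.9 to 49.7), ZMAT3 (205.6, others 192.5 to 194.1), FBXO22 (95.2, others 84.3 to 85.3), EGR1 (1.75, others 1.61 to 1.63) and CCL5 (8.51, others 7.02 to 7.27), and low for SQSTM1 (411.5, others 475.0 to 487.6) and TUBB6 (231.4, others 285.4 to 293.9). WT replicate 3 was low for HSPA5 (217.3 CPM, others 235.4 to 236.8) and high for NEU1 (34.9, others 31.2 to 31.7) and F3 (31, others 26.6 to 27.3). WT replicate 4 was high for HK2 (114.0 CPM, others 107.9 to 108.2) and CSF1 (56.9, others 48.7 to 49.6). In all 14 the PCI-34051 libraries lay wholly above or wholly below the 4 WT libraries, as for 63.2% of all protein-coding genes tested. These genes were named largely because they were called, so their separation is no further support.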

How the results depend on the processing

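Scaling by total count only gave 7256 protein-coding genes higher and 1033 lower than in WT, thinning gave 2074 and 1750, and a minimum change of 2-fold gave 882 and 507. Against Tubastatin A, 524 were higher and 1122 lower with no filter, 603 were higher with non-coding genes left out, and 2 and 22 passed the 2-fold minimum. Against KDAC8H143A that minimum left 3314 and 2027. Total count only turned the fatty acid median to 0.10 and HDAC8 to 0.38, and thinning turned FANCC to -0.04. The cause was not tested. Of 195 genes named against WT, 151 kept direction and call in every setting, as did 10 of 12 against Tubastatin A.

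Leaving out 1 library gave 3262 to 3533 higher and 2776 to 3115 lower than in WT, 114 to 353 and 254 to 679 against Tubastatin A, and 4337 to 5688 and 2543 to 3738 against KDAC8H143A. The replicate block gave 3315 and 2899 against WT, 230 and 463 against Tubastatin A and 5101 and 3052 against KDAC8H143A. With the GC and length correction added to the replicate block, 182 were higher and 423 lower than with Tubastatin A. Libraries of equal number shared only that number (correlations of deviations -0.0331 to 0.0359). In WT, 3 counts were worth up to 0.655 CPM, which limits values near 0. Within the comparison with WT, depth, mitochondrial rRNA and treatment cannot be told apart.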

Other observations

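Further gene families were gathered after their values had been seen, and their counts are a description, beside the 28.9% higher, 25.4% lower and median of 0.03 of all protein-coding genes tested. Over Tubastatin A, the medians of these families lay only between -0.10 (mitochondrial ribosomal proteins) and 0.24 (alpha-arrestins). The changes over WT below are therefore not particular to PCI-34051 at the level of family medians. Of 17 integrin subunits, which anchor cells to the matrix, 12 were higher and 3 lower (median 0.91). ITGB3 (3.64), ITGA11, a collagen receptor chain (3.52), and ITGB4 (2.80) had the greatest rises, while ITGA6 (-0.90) and ITGA10 (-0.84) fell beside ITGB2. Of 15 prostanoid genes, 10 were higher and 2 lower (median 0.95). PLA2G4A, the phospholipase that frees arachidonic acid, rose by 3.65, while the receptor genes PTGER4 (-1.07) and TBXA2R (-1.04) were lower. PTGS1 (2.14) was near 0, at 0.125 to 0.439 CPM in WT and 1.07 to 1.25 CPM with PCI-34051. It was not tested with thinned libraries. Of 48 genes of the TGF-beta and BMP pathway, 28 were higher and 8 lower (median 0.39). The inhibitors of differentiation ID2 (2.83), ID1 (2.52) and ID3 (2.27), the latent-complex protein LTBP3 (3.18) and the activin subunit gene INHBA (2.66) rose. BMP7 (-2.63), INHBB (-2.29) and the activin antagonist FST (-1.87) fell. ID4 (3.97) was near 0, at 0 to 0.146 CPM in WT and 1.08 to 1.37 CPM with PCI-34051. It was not tested with thinned libraries.

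Of 18 circadian clock genes, 11 were higher and 2 lower (median 0.81), with BHLHE41 (2.53), RORA (1.45) and PER1 (1.21) up and BMAL2 down (-0.67). Of 5 alpha-arrestins tested, 4 were higher and 1 lower (median 1.94), ARRDC4 (3.61) and ARRDC3 (1.94) rising with TXNIP and ARRDC1 falling (-0.53). Of 20 FOXO and insulin signalling genes, 13 were higher and 3 lower (median 0.46), with KLF9 (2.59) and FOXO4 (1.20) up and TRIB1 down (-0.87). INSR (1.59) was near 0, at 0 to 0.752 CPM in WT and 1.09 to 2.06 CPM with PCI-34051. It was not tested with thinned libraries. Of 15 MHC class I and antigen-loading genes, 11 were higher and 1 lower (median 0.64). Mitochondrial ribosomal proteins had 45 lower and 4 higher of 78 (median -0.31, 0.07 with total count only), and nuclear pore proteins 19 lower and 1 higher of 28 (median -0.32, 0.07 with total count only).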
